A study of Mus musculus with 7 samples.

Results

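Germinal vesicle (GV) oocytes are the fully grown oocytes of the ovary that have not yet resumed meiosis. In these cells, 10 genes for the transport and use of pyruvate and lactate were examined. They were 4 monocarboxylate transporter genes (Slc16a1, Slc16a3, Slc16a6 and Slc16a7), the transporter partner Bsg, the lactate dehydrogenase genes Ldha and Ldhb, the mitochondrial pyruvate carrier genes Mpc1 and Mpc2, and Pdha1 of the pyruvate dehydrogenase complex. Slc16a6 was chosen by its log2 RPM in the genotypes compared here, which differed, and the other genes were chosen for their roles. In the deposited table of 33437 oocyte transcripts, 8 of the 10 genes were found by the gene named for a transcript on its own strand, each with 1 transcript. The table names the transcript of Slc16a6 after Amz2 and that of Pdha1 after Map3k15, their neighbours on the opposite strand, and both were identified by their span. In all, 9 of the 10 passed the filter on low values, which asked for at least 1 RPM (a read count divided by the depth of its library, in mapped reads) in at least 3 libraries.

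Single-cell RNA-seq was performed on GV oocytes of 21-day-old C57BL6 females (C57BL/6OlaHsd in the methods of the study), with 1 oocyte per library. According to the labels, every female was homozygous for a floxed Setd1b gene, which encodes a histone H3 lysine methyltransferase. In 4 libraries the female was Gdf9-Cre positive (Setd1b cKO), and in 3 libraries Gdf9-Cre negative (Setd1b WT). Gdf9-Cre is a recombinase that removes the floxed segment in growing oocytes. The labels thus give the WT females the floxed gene but no Cre, while the methods of the study define WT females more widely, also admitting females with 1 intact Setd1b allele and Gdf9-Cre. No label tells whether any of the oocytes came from the same female, and p-values measure only the spread between these oocytes. Because RPM is a share of the library, less RNA of a gene and more RNA of other genes in an oocyte cannot be told apart.

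The oocyte takes up pyruvate as its main fuel, and much of it is made by the surrounding cumulus cells, while the oocyte itself uses little glucose. Monocarboxylate transporters carry pyruvate, lactate and ketone bodies across membranes, lactate dehydrogenase interconverts pyruvate and lactate, and the mitochondrial pyruvate carrier and the pyruvate dehydrogenase complex bring pyruvate into the mitochondrion and turn it into acetyl-CoA. The enzyme SETD1B writes H3K4 methylation, a mark of promoters rich in CpG dinucleotides. The study, however, tied SETD1B to gene expression and another methyltransferase, MLL2, to CpG content. In it, regions that lost the mark in Setd1b cKO oocytes were poor in CpG dinucleotides, and regions that gained it were rich in them.

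As background, the CpG content of the promoters is shown for the lactate dehydrogenase pair and for the transporter gene Slc16a1. RefSeq promoter windows (build GRCm38.p6) were held for 7 of the 10 genes, and not for Slc16a6, Slc16a7 or Bsg. Each sequence below gives the 250 bases upstream of an annotated start, 5′ to 3′ on the strand of the gene, with each CG dinucleotide in capitals. They lie at chr7:46845554-46845803 (plus strand, the more upstream of the starts of Ldha), chr6:142507958-142508207 (minus strand, Ldhb) and chr3:104638414-104638663 (plus strand, Slc16a1).
Ldha: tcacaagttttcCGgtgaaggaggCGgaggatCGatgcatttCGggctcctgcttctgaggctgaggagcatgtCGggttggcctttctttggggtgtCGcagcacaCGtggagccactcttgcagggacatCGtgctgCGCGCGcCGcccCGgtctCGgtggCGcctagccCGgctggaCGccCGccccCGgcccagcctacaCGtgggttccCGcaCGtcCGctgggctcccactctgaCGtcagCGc
Ldhb: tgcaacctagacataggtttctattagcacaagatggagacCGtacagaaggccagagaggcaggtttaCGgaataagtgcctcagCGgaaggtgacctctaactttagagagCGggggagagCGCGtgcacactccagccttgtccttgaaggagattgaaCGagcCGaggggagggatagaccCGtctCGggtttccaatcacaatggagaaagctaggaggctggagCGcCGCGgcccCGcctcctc
Slc16a1: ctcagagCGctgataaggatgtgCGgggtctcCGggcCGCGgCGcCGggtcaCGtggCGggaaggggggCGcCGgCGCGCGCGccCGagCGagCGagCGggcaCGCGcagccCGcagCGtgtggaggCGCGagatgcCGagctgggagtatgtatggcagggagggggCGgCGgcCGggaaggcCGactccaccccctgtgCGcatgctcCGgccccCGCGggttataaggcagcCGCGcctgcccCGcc

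A CG dinucleotide reads the same on both strands. The Ldha window held 25 of them, a count reached by 10.7% of the 32851 promoter windows of this length, and the window at the more downstream start of Ldha held 9, reached by 40.3%. The Ldhb window held 14, reached by 29.4% of windows, and the Slc16a1 window held 37, reached by 2.20%. The median window held 6. The oocyte transcript of Ldhb began 1189 bases upstream of the annotated start, so the window shown for Ldhb lies wholly inside the transcript measured here. The transcript of Slc16a1 began 100 bases upstream of the annotated start, and that of Ldha 35 bases downstream of it (-35 when counted upstream). Among the other genes with an entry, Slc16a3 had 29 CG dinucleotides, Mpc1 32 at one annotated start and 18 at the other, Mpc2 19 and Pdha1 15. These counts describe the windows, and no measurement of H3K4 methylation entered this comparison.

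The libraries held between 8582493 and 12972366 mapped reads, so that 1 read was worth 0.0771 to 0.117 RPM. Reads outside the listed transcripts were 13.2 to 16.4% of the reads in the cKO libraries and 9.57 to 9.90% in the WT libraries. Every transcript past the filter was tested, with or without a gene name, and these transcripts are called genes in counts and shares over all genes. Of 18179 genes tested with limma on log2(RPM + 1), 683 were higher and 355 lower in Setd1b cKO oocytes (more than 2-fold apart, with p adjusted after Benjamini-Hochberg below 0.05), and the median over all these genes was a log2 fold change of 0.12. Centring each library on its median gene moved that median to -0.03 and the share of higher genes among the calls from 65.8% to 46.3%. Across genotypes, cKO replicate 4 and WT replicate 3 stood apart from the rest. Their reads differed less from each other (chi-square per degree of freedom 39.2) than from those of any other library of their own genotype (42.9 to 79.6 for cKO replicate 4 and 51.0 to 59.6 for WT replicate 3). With both left out, 1029 genes were higher and 498 lower, and 0 of the 8 genes tested besides Slc16a6 passed the threshold. The transcript of the targeted gene Setd1b was deposited under the name Gm26745 and was identified by its span. Setd1b was read in both genotypes, at 8.31, 16.7, 12.8 and 2.68 RPM in the cKO libraries and at 17.7, 16.3 and 8.61 RPM in the WT libraries. This value covers the whole transcript with the sequence outside the floxed segment, and so it is no check of the labels. The oocyte markers summed to 22413 to 24728 RPM in cKO and 26940 to 29401 RPM in WT libraries, with none at 0. Of the 14 tested, 1, Mos, passed the threshold with a lower level in cKO oocytes (7.14%, against 1.95% of all genes). A log2 fold change above 0 was found for 3 of the 14 (1 after centring), against 60.3% of all genes (47.3% after centring). The median of these markers was -0.37. Granulosa and cumulus cell markers (16 of 20 in the table) summed to 78.3 to 90.5 RPM in cKO and 51.3 to 72.1 RPM in WT libraries, with 0 of 6 tested past the threshold (1 at an unadjusted p under 0.05, and 0 with voom). Most of those reads came from Nr5a2 and Cyp19a1, while Amh and Foxl2 were listed at 0 in every WT library with means of 0.0435 and 0.0412 RPM in cKO, and Vcan was listed at 0 in every library. The 1 at an unadjusted p under 0.05 was Inha, named after its values were seen. It was read at 7.03, 11.4, 13.2 and 0.583 RPM in cKO and at 0.810, 4.32 and 0 RPM in WT libraries. The log2 fold change of Inha was 1.70 (SE 0.76, adjusted p = 0.225). Of the 6 tested, 5 had a log2 fold change above 0, with a median of 0.39. Blood and stromal markers summed to 22.2 to 33.8 RPM in cKO and 21.9 to 25.3 RPM in WT libraries, with 2 of 4 tested, Dcn and Cd68, past the threshold in the higher direction (1 with voom, against 3.76% of all genes with limma) and Hba-a1 and Hbb-bs at 0. The part of these markers in the results below was not tested.

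Slc16a6 (monocarboxylate transporter 7), a carrier known for the export of ketone bodies from the liver, was read at a low level in WT oocytes and at a moderate level in cKO oocytes. Its transcript spans chr11:109450865-109473146 on the minus strand (GRCm38), and no other listed transcript overlaps it. The cKO libraries held 16.6, 15.1, 15.2 and 13.9 RPM, from 168, 183, 174 and 119 reads. The WT libraries held 1.30, 0.771 and 0.655 RPM, from 16, 10 and 7 reads. Every cKO oocyte was above every WT oocyte, the cKO oocytes lay close together, and the WT oocytes spread more widely relative to their low mean. The means were 15.2 ± 1.13 RPM (SD, n = 4) and 0.907 ± 0.341 RPM (SD, n = 3), a ratio of 16.7. The difference in log2(RPM + 1) was 3.10, smaller than that ratio because the added 1 RPM weighs most on genes of low level. Since the gene was chosen for this difference, no test is given. For comparison, 20.3% of the genes tested had no overlap between the genotypes, 13.2% with the higher and 7.14% with the lower levels in cKO, and 5.71% passed the threshold. Among the 33437 transcripts, Slc16a6 ranked 17175th by mean RPM in WT oocytes and 7150th in cKO oocytes.

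**Figure D1:**
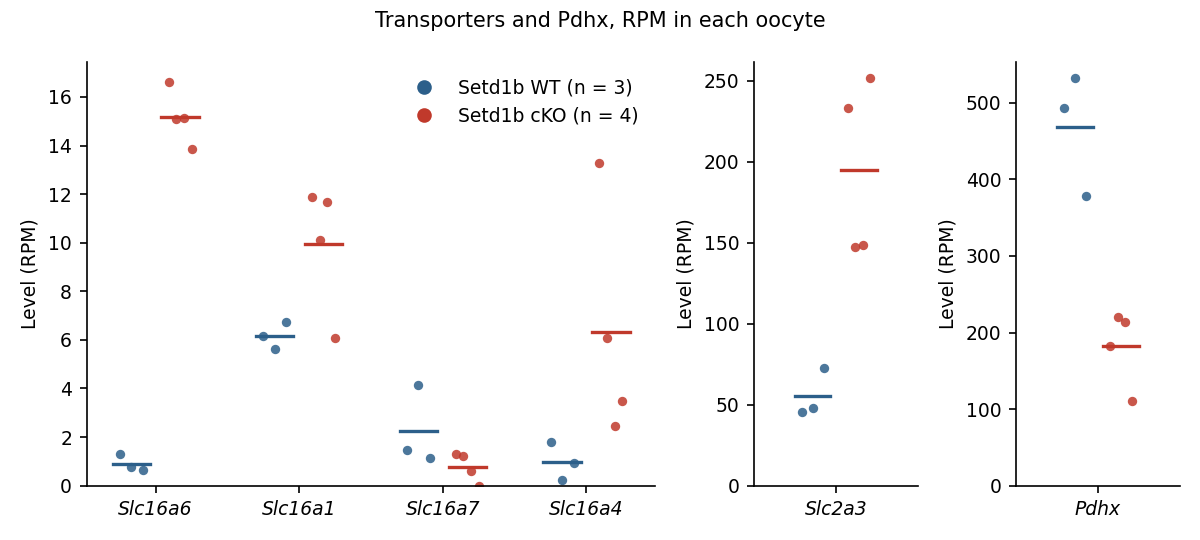
Levels in RPM (vertical axes, linear from 0) of Slc16a6, Slc16a1, Slc16a7, Slc16a4, Slc2a3 and Pdhx. Each point is 1 oocyte library and each line the mean of the genotype. The 4 Setd1b cKO points of Slc16a6 lie between 13.9 and 16.6 RPM and the 3 WT points between 0.655 and 1.30 RPM, while the points of Slc16a1 and Slc16a7 overlap between genotypes.

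The transcripts that neighbour Slc16a6 did not pass the threshold. Amz2, a metalloprotease gene whose end lies 12.7 kb from the end of Slc16a6, was read at 56.8, 47.4, 54.4 and 37.5 RPM in cKO and at 54.2, 48.1 and 50.1 RPM in WT libraries. These levels overlapped, with a log2 fold change of -0.07 (SE 0.22, adjusted p = 0.905). Arsg, which encodes a lysosomal sulfatase and starts 12.5 kb from the start of Slc16a6 on the opposite strand, was read at 4.26, 3.54, 3.31 and 0 RPM in cKO and at 0.729, 1.16 and 1.31 RPM in WT libraries. In 3 of the 4 cKO oocytes Arsg was above all WT oocytes, and cKO replicate 4 held 0 reads (log2 fold change 0.64, SE 0.52, adjusted p = 0.543). Gna13, a G protein alpha subunit gene 49.5 kb away, had a log2 fold change of 0.39 (SE 0.25, adjusted p = 0.417). The other 3 transcripts within 100 kb, Gm11696, Gm15642 and one without a name, had under 1 RPM in every library and were not tested.

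**Figure D2:**
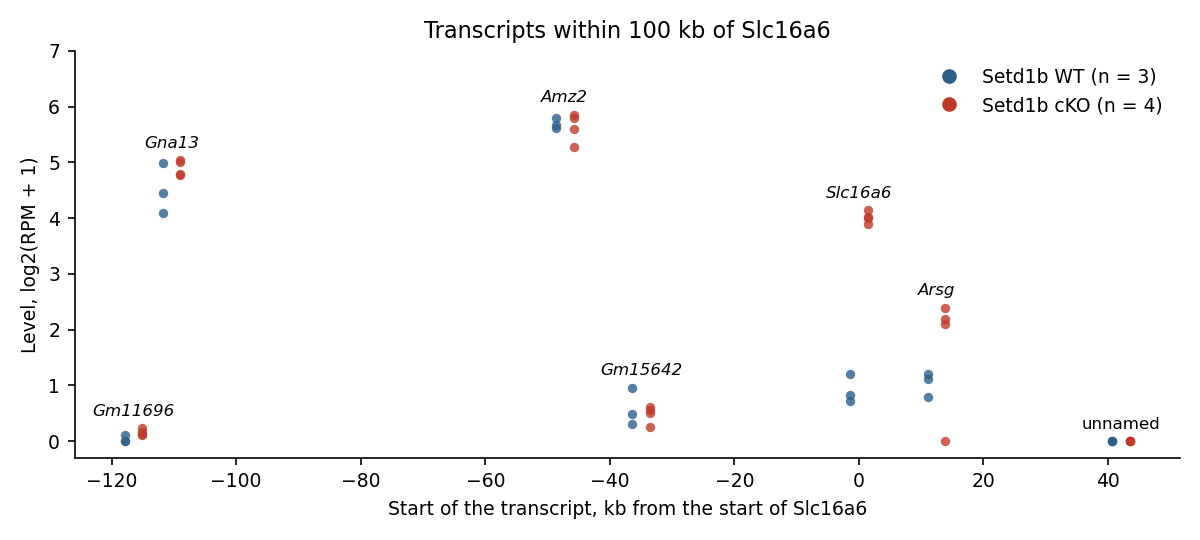
Levels of the transcripts within 100 kb of Slc16a6, on a log2(RPM + 1) axis, against the distance in kb of each transcript's start from the start of Slc16a6 (positive towards higher coordinates). Each point is 1 library, in blue for Setd1b WT and red for Setd1b cKO, shifted sideways so that genotypes can be told apart. The genotypes are separated at Slc16a6 and overlap at Amz2, Gna13 and Arsg.

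The other transporter genes did not pass the threshold. Slc16a1 (monocarboxylate transporter 1), a carrier of pyruvate and lactate found in most tissues, spans chr3:104638564-104658462. It was read at 11.9, 10.1, 11.7 and 6.06 RPM in the cKO libraries and at 6.15, 5.63 and 6.74 RPM in the WT libraries. In 3 of the 4 cKO oocytes the level was above all WT oocytes, and cKO replicate 4, the library with the fewest reads, fell within the WT range. The log2 fold change was 0.57 (SE 0.29, adjusted p = 0.280, 95% interval of the difference -0.06 to 1.20). Slc16a7 (monocarboxylate transporter 2), which carries pyruvate with high affinity, spans chr10:125226464-125308816. The cKO libraries held 1.29, 1.24, 0.609 and 0 RPM and the WT libraries 1.46, 4.16 and 1.12 RPM. The highest WT oocyte stood above the rest, and the genotypes overlapped (log2 fold change -0.82, SE 0.41, adjusted p = 0.273, 95% interval -1.72 to 0.0749). Without WT replicate 2 the log2 fold change was -0.43, it was -0.31 with a pseudocount of 5 RPM and -1.83 with voom, and no alternative in which it was tested brought it past the threshold. For the cKO library with 0 reads the depth allows up to 0.350 RPM, the worth of 3 reads, in counting error only. An unnamed transcript on the opposite strand, at 1.98 to 6.09 RPM, overlaps 45982 bases of Slc16a7, and since the use of strand in the counting is not stated, the reads of the pair may not be told apart. Slc16a3 (monocarboxylate transporter 4), a lactate exporter of glycolytic cells at chr11:120949110-120960868, had 0 reads in all 7 libraries. A count of 0 allows up to 0.231 to 0.350 RPM depending on the library. Csnk1d, on the opposite strand, overlaps 1634 bases of it and was read at 2.31 to 6.88 RPM.

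Bsg encodes basigin, the membrane protein that brings the transporters 1 and 4 to the cell surface, at chr10:79704338-79711971. Its levels were 4.85, 21.2, 6.09 and 6.29 RPM in cKO and 13.4, 8.33 and 4.68 RPM in WT libraries. The cKO replicate 2 library was far above the other 3, and the ranges of the genotypes overlapped. The log2 fold change was -0.01 (SE 0.48, adjusted p = 0.993, 95% interval -1.07 to 1.04).

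The lactate dehydrogenase genes were of very unequal level. Ldhb encodes the B subunit, which in textbooks goes with the oxidation of lactate to pyruvate, and spans chr6:142485576-142509146 on the minus strand. It was read at 10202, 9310, 10043 and 9459 RPM in the cKO libraries and at 9512, 9725 and 9421 RPM in the WT libraries. By mean RPM it ranked 1st of all 33437 transcripts in cKO oocytes and 2nd in WT oocytes. It made up 1.09 to 1.22% of all reads within transcripts in cKO libraries and 1.04 to 1.08% in WT libraries, with no overlap. In RPM, a share of all mapped reads, the levels of the genotypes overlapped, with means of 9754 ± 435 (SD, n = 4) and 9553 ± 156 RPM (SD, n = 3). The log2 fold change was 0.03 (SE 0.25, adjusted p = 0.966, 95% interval -0.51 to 0.57), and -0.13 after centring on the median gene. Ldha encodes the A subunit, which prevails in glycolytic tissues such as skeletal muscle, at chr7:46845839-46855627. Its levels were 3.56, 1.32, 1.48 and 0 RPM in cKO and 0.243, 1.23 and 0.374 RPM in WT libraries. The genotypes overlapped, and several libraries were close to the limit of 3 reads, with 3 and 4 reads in 2 of the WT libraries (log2 fold change 0.53, SE 0.47, adjusted p = 0.571, 95% interval -0.50 to 1.56). Of the reads of the pair, 99.97 to 100% came from Ldhb in every library. Without cKO replicate 1 the log2 fold change of Ldha was 0.20, and without cKO replicate 4 it was 0.93. No difference in Ldha was detectable at this depth.

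The mitochondrial pyruvate carrier is built from the proteins of Mpc1 and Mpc2. Mpc1, at chr17:8283735-8297661, was read at 101, 104, 133 and 129 RPM in cKO and at 81.5, 88.6 and 118 RPM in WT libraries. The WT library with the highest level fell inside the cKO range. The means were 117 ± 16.7 and 96.1 ± 19.3 RPM (SD, n = 4 and 3), with a log2 fold change of 0.29 (SE 0.22, adjusted p = 0.498, 95% interval -0.19 to 0.77), and of 0.18 without WT replicate 1 and 0.45 without WT replicate 3. Mpc2, at chr1:165460651-165481214, was read at 7.13, 23.5, 5.57 and 9.79 RPM in cKO and at 6.56, 5.70 and 5.80 RPM in WT libraries. The WT oocytes lay close together, and the cKO oocytes both above and below them (log2 fold change 0.64, SE 0.41, adjusted p = 0.417, 95% interval -0.27 to 1.54). Without cKO replicate 2, the highest library, the log2 fold change of Mpc2 was 0.25. Per kb of annotated exon, Mpc1 was 16.5 to 89.2 times the level of Mpc2 in the 7 libraries, and 5.97 to 32.2 times with the median length of coding transcripts in place of the exon length. Both transcripts overlap a transcript of the opposite strand, Mpc1 at its end by 153 bases (4930506C21Rik) and Mpc2 at its start by 295 bases (Dcaf6).

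Pdha1 encodes the alpha subunit of pyruvate dehydrogenase (E1), the first enzyme of the complex, at chrX:160122209-160138491 on the minus strand. Its levels were 33.9, 54.5, 48.3 and 22.3 RPM in cKO and 55.6, 37.2 and 28.9 RPM in WT libraries. The genotypes overlapped, with a log2 fold change of -0.05 (SE 0.33, adjusted p = 0.953, 95% interval -0.79 to 0.68). Map3k15 overlaps 1143 bases of it on the opposite strand and was read at 7.02 to 15.6 RPM.

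**Figure D3:**
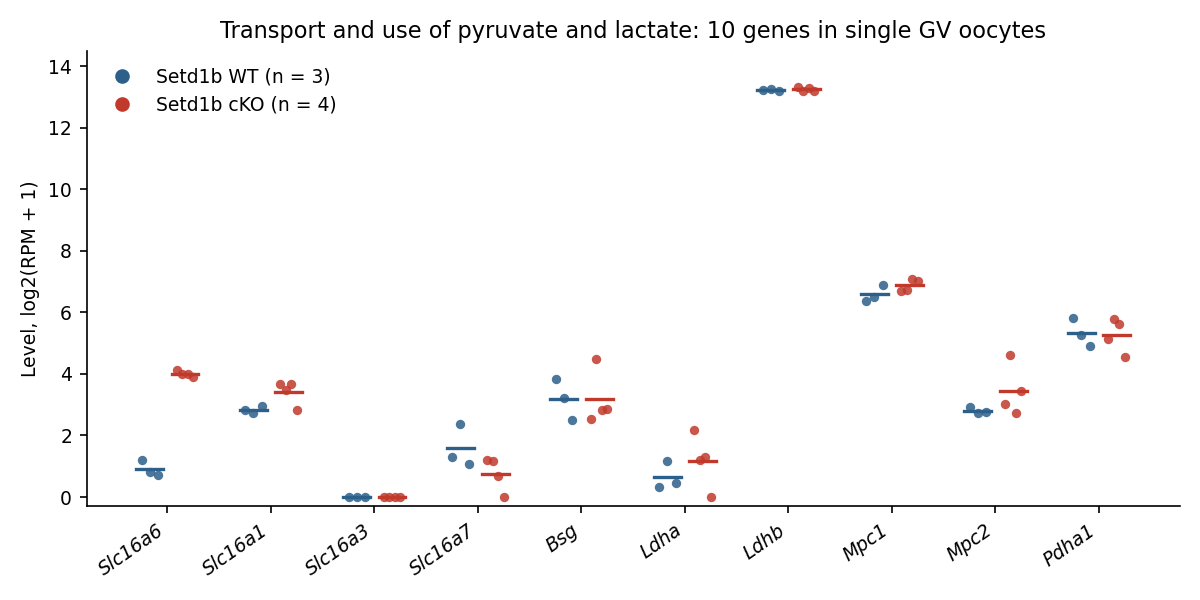
Levels of the 10 genes on a log2(RPM + 1) axis. Each point is 1 library (4 Setd1b cKO in red, 3 Setd1b WT in blue) and each line the mean of the genotype on this scale. The genotypes are apart at Slc16a6 and overlap at the other 8 genes with reads, Slc16a3 lies at 0 in every library, and Ldhb lies far above the rest.

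Thus, of the 8 genes tested besides Slc16a6, 0 passed the threshold with limma and 0 with voom, against 5.71% of all genes. An unadjusted p under 0.05 was reached by 0 of the 8, against 21.7% of all genes, and 0 of the 8 had genotypes without overlap, against 20.3%. Their median log2 fold change was 0.16, against 0.12 for all genes. The intervals above show that differences of 2-fold remained possible for Slc16a1, Slc16a7, Bsg, Ldha and Mpc2.

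The levels of different genes were compared as RPM per kb of annotated exon. In WT oocytes the order of the means was Ldhb (6084), Mpc1 (48.8), Pdha1 (10.9), Bsg (4.84), Slc16a1 (1.39), Mpc2 (0.821), Slc16a7 (0.673), Slc16a6 (0.205), Ldha (0.197) and Slc16a3 (0). The ranges of the libraries overlapped between Mpc2 and Slc16a7 and between Slc16a6 and Ldha, and the other neighbours in this order did not overlap. In cKO oocytes the order was Ldhb (6213), Mpc1 (59.5), Pdha1 (10.6), Bsg (5.29), Slc16a6 (3.43), Slc16a1 (2.24), Mpc2 (1.57), Ldha (0.508), Slc16a7 (0.234) and Slc16a3 (0). Here Pdha1 and Bsg overlapped, as did Bsg and Slc16a6, Slc16a1 and Mpc2, Mpc2 and Ldha, Ldha and Slc16a7, and Slc16a7 and Slc16a3. The place of Bsg rested on cKO replicate 2, without which Bsg (3.17) came after Slc16a6 (3.44) and the level of Mpc2 was 1.02. Without cKO replicate 1 the level of Ldha in cKO oocytes was 0.298. Without WT replicate 2 the levels in WT oocytes were 0.386 for Slc16a7 and 0.0985 for Ldha. In WT oocytes, Slc16a7 came before Mpc2 and Ldha before Slc16a6 without replicate 1 or without replicate 3. With the median length of coding transcripts in place of the exon length, Slc16a6 stood 9th in WT and 5th in cKO oocytes. Mpc2 then stood at 5.87 in WT oocytes, above Slc16a1 (1.39) with no overlap, and at 11.2 in cKO oocytes, 4th and above Slc16a6 (10.5) and Bsg (7.68) with overlap. Ldha then stood at 0.773 in WT oocytes, above Slc16a6 (0.625) with overlap. Relative to Slc16a1, the per-kb level of Slc16a6 was 0.0973 to 0.211 in WT libraries and 1.30 to 2.29 in cKO libraries. With the coding transcript lengths these ratios were 0.297 to 0.642 and 3.96 to 6.98. Of the summed per-kb levels of the 4 transporter genes, Slc16a6 made up 13.8, 6.48 and 7.38% in the WT libraries and 55.1, 56.2, 54.9 and 69.6% in the cKO libraries. With the coding transcript lengths the share was 15.1 to 30.9% in WT and 78.1 to 87.5% in cKO libraries. By mean level, Slc16a1 was thus the highest of the 4 transporter genes in WT oocytes, and Slc16a6 in cKO oocytes. With the coding transcript lengths, Slc16a7 overlapped Slc16a1 in WT oocytes (0.464 to 1.72 against 1.27 to 1.52). These shares follow from the difference for which Slc16a6 was chosen.

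The rest of the pathway was read from 7 lists that hold other transporters and enzymes, of which 67 genes were tested. Of these, 1 was higher and 1 lower in cKO oocytes past the threshold, together 2.99%. Of all genes tested 5.71% passed it in either direction, 3.76% higher and 1.95% lower. An unadjusted p under 0.05 was reached by 6 of the 67, against 21.7% of all genes, voom called 2, and 10 had genotypes without overlap, against 20.3% of all genes. The median log2 fold change was 0.14. Centring on the median gene lowered each log2 fold change by 0.16, and the share of all genes above 0 from 60.3% to 47.3%.

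Slc2a3, the gene of glucose transporter 3, was the one that rose. It was read at 233, 148, 149 and 252 RPM in cKO and at 45.5, 48.0 and 72.9 RPM in WT libraries, so that every cKO oocyte was above every WT oocyte. The means were 195 ± 54.9 and 55.5 ± 15.1 RPM (SD, n = 4 and 3), with a log2 fold change of 1.79 (SE 0.27, adjusted p = 0.006). It spans chr6:122726327-122742522. Among the 16 tested genes of glycolysis and glucose uptake, the other 15 did not pass the threshold, and over the list the median was 0.29, with 12 of 16 values above 0 (9 of 16 after centring). In this list 4 of 16 genes reached an unadjusted p under 0.05, against 21.7% of all genes. They were Slc2a3, Gapdh and the phosphofructokinase genes Pfkm and Pfkp. Genotypes without overlap were found for 5 of 16, against 20.3% of all genes, and voom called 1. Pfkm and Pfkp were named after their values were seen. Aldoa, the aldolase gene, was higher in every cKO oocyte (0.39, SE 0.20, adjusted p = 0.283), and Pkm, the pyruvate kinase gene, overlapped between the genotypes (0.33, SE 0.42, adjusted p = 0.715). Gapdh, named here after its values were seen, had an adjusted p of 0.039 but a change short of 2-fold (0.93, SE 0.23). It was read at 49.7, 48.8, 58.2 and 44.0 RPM in cKO and 22.0, 33.7 and 22.9 RPM in WT libraries, and its many near-identical copies in the genome make its counts uncertain.

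Pdhx, which encodes the protein that anchors the E3 enzyme in the pyruvate dehydrogenase complex, was the one that fell. It was read at 183, 220, 213 and 111 RPM in cKO and at 493, 533 and 378 RPM in WT libraries, and every cKO oocyte was below every WT oocyte. The means were 182 ± 50.2 and 468 ± 80.4 RPM (SD, n = 4 and 3), with a log2 fold change of -1.39 (SE 0.27, adjusted p = 0.015). The call was lost without WT replicate 1 (adjusted p = 0.069) and without WT replicate 2 (adjusted p = 0.086), with log2 fold changes of -1.35 and -1.29. With no filter on low values the calls of Pdhx (adjusted p = 0.096) and Slc2a3 (adjusted p = 0.055) were lost as well. Pdhx spans chr2:103021075-103073772, and Apip, on the opposite strand, overlaps its first 98 bases. The other 9 tested genes of the complex and its kinases and phosphatases did not pass the threshold, and the median of the list was -0.18. Dld, the gene of the E3 enzyme, was read at 258, 368, 236 and 73.5 RPM in cKO and at 332, 325 and 96.5 RPM in WT libraries. One library of each genotype, cKO replicate 4 and WT replicate 3, stood far below the rest (log2 fold change -0.12, SE 0.56, adjusted p = 0.937, and 0.37 without cKO replicate 4).

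**Figure D4:**
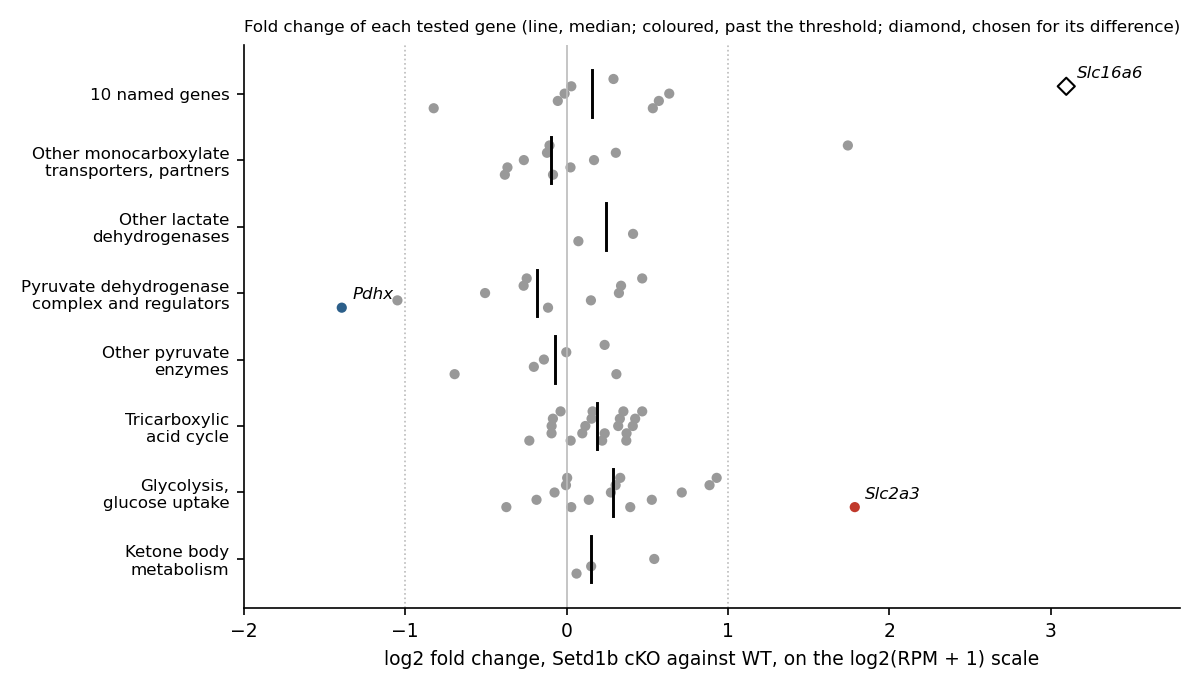
Log2 fold change (Setd1b cKO against WT, on the log2(RPM + 1) scale) of each gene past the filter in the 10 genes and the 7 lists. Each point is 1 gene, black lines are medians (without Slc16a6), coloured points passed the threshold, and the open diamond is Slc16a6 (3.10), chosen for its difference and given no test. Slc2a3 (1.79) and Pdhx (-1.39) are coloured, and most other points lie within 1 log2 unit of 0.

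Among 10 tested genes of other monocarboxylate transporters and partners, 0 passed the threshold (1 at an unadjusted p under 0.05, and 0 with voom), with a median of -0.10. Emb, the gene of embigin, another transporter partner, had a log2 fold change of -0.12 (SE 0.28, adjusted p = 0.859), and Nptn, the gene of neuroplastin, had -0.26 (SE 0.24, adjusted p = 0.583). Slc16a4 (monocarboxylate transporter 5) was named after its values were seen. It was read at 13.3, 6.09, 2.44 and 3.50 RPM in cKO and at 1.78, 0.231 and 0.936 RPM in WT libraries. Every cKO oocyte was above every WT oocyte, but the spread among cKO oocytes was wide and the gene missed the threshold (log2 fold change 1.74, SE 0.48, adjusted p = 0.061). Without cKO replicate 4 it passed (adjusted p = 0.037), as it did without both cKO replicate 4 and WT replicate 3 (adjusted p = 0.030). Its log2 fold change was 0.84 with a pseudocount of 5 RPM, 2.60 with 0.1 RPM, 2.82 as deposited and 2.76 with voom, and 1.35 to 2.03 without one library. Over the alternatives its adjusted p ran from 0.018 to 0.246. An unnamed transcript of the opposite strand overlaps 5906 bases of Slc16a4 and was read at 6.83 to 18.2 RPM.

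In the tricarboxylic acid cycle all 20 genes of the list were tested and 0 passed the threshold (0 at an unadjusted p under 0.05, and 0 with voom), with a median of 0.19 and 15 of 20 values above 0, or 0.0352 and 11 of 20 after centring. Sdhd, a subunit gene of succinate dehydrogenase, and Mdh2, the mitochondrial malate dehydrogenase gene, had the highest mean RPM of this list over the 7 libraries, although in cKO oocytes Mdh1, the cytosolic form, was above Mdh2 (239 against 225 RPM). Sdhd and Mdh2 had log2 fold changes of 0.16 (adjusted p = 0.690) and -0.23 (adjusted p = 0.836). Mdh2 was at 63.7 RPM in cKO replicate 4 and between 186 and 303 RPM in the other 6 libraries. The other lactate dehydrogenase genes, Ldhc of germ cells (0.41, adjusted p = 0.580) and Ldhd, which acts on D-lactate (0.07, adjusted p = 0.939), did not pass, nor did any of the 6 tested genes of other pyruvate enzymes (median -0.07) or the 3 of ketone body metabolism (median 0.15). These lists had 0 genes at an unadjusted p under 0.05 and 0 with voom. Me1, the cytosolic malic enzyme gene, had -0.69 (SE 0.34, adjusted p = 0.266), Got1, an aspartate aminotransferase gene, -0.14 (adjusted p = 0.831), Acat1, a thiolase gene, 0.06 (adjusted p = 0.947) and Oxct1, whose enzyme activates ketone bodies, 0.15 (adjusted p = 0.715).

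The genes whose levels were most alike to those of Slc16a6 across the 7 libraries were found by Pearson's r on log2(RPM + 1) among 6721 tested genes named on their own strand with a mean of at least 8 RPM. They were Hdac1, a histone deacetylase gene (0.994), Svopl, a gene of the transporter superfamily (0.992), Pde6g, a phosphodiesterase subunit gene (0.988), Tmem214 (0.986) and Caln1 (0.985). Hdac1 was read at 60.6, 60.9, 60.9 and 55.8 RPM in cKO and at 22.7, 22.6 and 17.6 RPM in WT libraries. Pde6g was read at 54.6, 42.7, 55.9 and 57.8 RPM in cKO and at 13.4, 10.3 and 7.95 RPM in WT libraries. All 5 were higher in every cKO oocyte than in any WT oocyte. The 7 libraries fall into the 2 genotypes that chose Slc16a6, so such a likeness follows from any difference between them.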

How the data were processed

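RNA was measured in 7 single GV oocytes, 4 Setd1b cKO and 3 Setd1b WT, grouped by the genotype in the labels. The authors amplified cDNA with a SMARTer kit, built libraries with NEBNext, sequenced single reads, used trim galore and then Hisat against GRCm38, removed hits with a mapping quality under 20, which affects genes with near-identical copies, and counted reads in SeqMonk over oocyte transcripts with isoforms merged. The submitters' processing notes also name bcl2fastq 1.8.4 and featureCounts 1.4.4. The use of strand in counting is not stated in the sources used here.

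The deposited values are log2 RPM, with 0.9 read in place of 0. Divided by the worth of 1 read, 100% of the values were whole numbers (within 0.01), which gave totals of 8582493 to 12972366 mapped reads. No pair of libraries agreed within sampling noise (chi-square per degree of freedom of at least 14.0).

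Of 33437 transcripts, 16757 took the gene named in the table on their strand. Another 3312, Slc16a6 and Pdha1 among them, took the GENCODE M21 gene of their strand whose span overlapped theirs by at least 0.5 of the union, a step added after the table had been seen. Values were taken as log2(RPM + 1). Those that reached 1 RPM in 3 or more libraries were tested with limma 3.58.1 (R 4.3.3), lmFit and eBayes with trend, and Benjamini-Hochberg adjustment over all genes tested. Past the threshold meant more than 2-fold apart with an adjusted p below 0.05. The study used a model for counts, and voom on the recovered reads was an alternative. The others were pseudocounts of 0.1 and 5 RPM, the values as deposited, no filter or a mean of at least 4 RPM, centring, quantile normalisation, scaling to reads within transcripts, eBayes robust or without trend, a replicate block, the adjusted p alone, each library left out, and, added after the data had been seen, coding transcript length and cKO replicate 4 and WT replicate 3 both left out. The fit was tested on simulated data. The rest was done with pandas 2.3.3, scipy 1.17.1, numpy 2.4.6 and matplotlib 3.10.9 under Python 3.11.15.

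The 10 genes, the lists and the tests were chosen with earlier results of these data known. Named genes were the 10 genes, Setd1b, of each list up to 6 genes past the threshold by size and the 2 of highest mean RPM, the 5 genes most like Slc16a6 among those with a mean of at least 8 RPM, and transcripts within 100 kb of Slc16a6 or overlapping one of the 10. Intervals and limits cover counting error only, or for log2 fold changes the spread between libraries.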

Additional observations from a re-analysis of the deposited data

Results flagged for a closer look

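Of 31 values examined in the 4 Setd1b cKO libraries, 2 had a library far from the others by Dixon's criterion at 95%, which chance exceeds in about 1 of 20 groups. For Bsg, the cKO replicate 2 library held 21.2 RPM and the others 4.85 to 6.29 RPM, a gap of 0.912 of the range. For Hdac1, the cKO replicate 4 library held 55.8 RPM and the others 60.6 to 60.9 RPM, a gap of 0.942 of the range.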

How the results depend on the processing

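Under the 21 alternatives, 0 of the 8 genes tested besides Slc16a6 passed the threshold, but Slc16a7 and Ldha were not tested with a mean of at least 4 RPM. The log2 fold change of Slc16a6, a description, was 3.97 with a pseudocount of 0.1 RPM, 1.77 with 5 RPM, 4.13 as deposited, 2.89 with quantile normalisation, 4.05 with voom and 3.0 to 3.24 without one library. The count over all genes (1038) was 553 with a pseudocount of 5 RPM (315 higher) and 303 with no filter (174 higher, 129 lower). The higher genes were 428 with quantile normalisation and 443 with voom. Without one library the count ran from 280 to 1287 (171 to 850 higher, 109 to 437 lower), with 280 without WT replicate 2, 372 without WT replicate 1, 560 without cKO replicate 3 and 613 without cKO replicate 1. With cKO replicate 4 and WT replicate 3 both left out 1029 genes and 2 list genes were higher, and signs turned for Got1 (0.0684), Mdh2 (0.15) and Acat1 (-0.0570). The lists had 0 genes past the threshold with no filter (0 higher, 0 lower), 2 higher when scaled to reads within transcripts or by adjusted p alone, and 1 to 3 without one library (1 to 2 higher, 0 to 1 lower). The replicate numbers do not pair the oocytes (correlations of deviations 0.192, 0.295 and -0.129). The replicate block uses 3 pairs and so also leaves out cKO replicate 4. With it 2 list genes were higher, as without that library alone, Slc16a4 among them (adjusted p = 0.018 with the block and 0.037 without that library alone). The log2 fold changes with the block equal those without cKO replicate 4, with turned signs for Bsg (0.0915), Pdha1 (0.19), Emb (0.0820), Dld (0.37), Got1 (0.0649) and Mdh2 (0.30). Signs also turned for Bsg with a pseudocount of 5 RPM (0.00819) and, scaled to reads within transcripts, for Bsg (0.0573) and Pdha1 (0.0228). Centring turned Ldhb (-0.13), Ldhd (-0.0826), Acat1 (-0.0940) and Oxct1 (-0.00344), and quantile normalisation Ldhd (-0.0646). Without one library the log2 fold change ran from -0.44 to 0.31 for Bsg, -0.27 to 0.19 for Pdha1, -0.32 to 0.0820 for Emb, -0.21 to 0.49 for Ldhd, -0.70 to 0.37 for Dld, -0.33 to 0.0649 for Got1, -0.45 to 0.30 for Mdh2 and -0.27 to 0.30 for Acat1. Beyond the library that the block leaves out, the cause was not tested. Adding all rows of a gene changed nothing, since each had 1 row. Slc16a6 in WT oocytes rests on 7 to 16 reads per library.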
